A study of Homo sapiens with 6 samples.

Results

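Intermediate filament genes other than keratins, and the lamin genes, were examined in MCF10A cells, an established mammary epithelial line of human origin. The 6 genes were a listed set, VIM, NES and SYNM of the cytoplasmic filaments and LMNA, LMNB1 and LMNB2 of the nuclear lamina, and all 6 were found among the 19198 genes of the deposited expression table. The study compared 3 control samples, grown in 5% horse serum with EGF at 20 ng/ml, insulin at 10 µg/ml, hydrocortisone at 0.5 µg/ml and cholera toxin at 100 ng/ml, with 3 growth factor-depleted samples, which had the serum but none of these 4 additions. The purpose of the comparison was to profile the change from epithelial to mesenchymal morphology, called epithelial to mesenchymal transition or EMT, that follows the removal of these factors. The day on which RNA was taken was not given, 1 cell line was used, and nothing states that replicates came from separate cultures, so the p-values measure the spread between these samples, which may be technical.

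Intermediate filaments are assembled from proteins with a shared coiled-coil rod, and cell types differ in which ones they make. Epithelial cells build their cytoplasmic filaments from keratin pairs, while mesenchymal cells use vimentin, and a gain of vimentin is a customary marker of EMT. Nestin and synemin are large filament proteins that enter filaments together with vimentin or desmin rather than alone. Lamins form the meshwork under the inner nuclear membrane, with lamins A and C made from LMNA by alternative splicing and the B-type lamins made from LMNB1 and LMNB2.

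Values are normalized counts per gene, that is, reads divided by a size factor of each sample, and are not divided by gene length unless given per kb. Between 14515993 and 28672630 reads fell on genes in the control samples and between 7472418 and 24407075 in the depleted samples, and a count of 3 reads, taken as the floor of detection, stood for 1.76 to 6.71 normalized counts. The limma test was applied to log2(normalized count + 1) of 16988 genes, those whose mean over the 6 samples was 10 or more, and a gene was called where it changed 2-fold or more and its adjusted p was under 0.05. The SE, 95% confidence interval and adjusted p given for a gene come from that fit, in which positive log2 fold changes are higher after depletion. By this rule 6.33% of the genes tested were called, 4.36% as higher and 1.97% as lower in the depleted samples, and the median log2 fold change over all of them was -0.03.

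Depleted replicate 1 differed from the other depleted samples in several epithelial genes, though not in one direction. Its KRT5 was 562 normalized counts against 10908 and 14997 in depleted replicates 2 and 3, and 38503, 12739 and 13008 in the controls. Its CDH1, the E-cadherin gene, was 610 against 13234 and 13118, and 20039, 13132 and 12961 in the controls. For CDH1 depleted replicates 2 and 3 thus lay within the control range, and neither gene was called. By contrast, its ITGB4 was 13337 against 7270 and 5894 in depleted replicates 2 and 3, and its GATA3 was 692 against 285 and 186. Over the 13 mammary marker genes it was the lowest depleted sample in 7 and the highest in 5. Among the controls, replicate 3 was the lowest in 9 of 10 proliferation markers, with PCNA at 538 normalized counts against 2903 and 3773 in replicates 1 and 2, and the highest in MKI67 (4047 against 3726 and 3929). Mammary markers fixed for the check of the cell type were present in every sample, with summed levels of 34917 to 54808 in the control and 34123 to 144719 in the depleted samples for the 5 basal genes, and of 21896 to 38531 and 18936 to 44672 for the 8 luminal genes. Of these 13 genes TP63, a basal transcription factor, and KRT19, a luminal keratin, were called, both lower after depletion. The labels call the cells luminal ductal, and levels in the controls varied widely within both marker lists. Of the luminal genes ESR1, the estrogen receptor, was at 63.9 to 206 normalized counts and CDH1 at 12961 to 20039. Of the basal genes the keratin KRT14 was at 12.8 to 264 and the keratin KRT5 at 12739 to 38503. Whether the cells were more basal or more luminal was not tested.

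Growth factor depletion was accompanied by a rise of VIM, NES and SYNM, while none of the 3 lamin genes was called. VIM rose 57.5-fold (95% confidence interval 28.2 to 117), SYNM rose 4.05-fold (2.20 to 7.45), and NES went from at most 4 reads in a control sample to at least 11 in a depleted one. The fitted folds of LMNA, LMNB1 and LMNB2 were 0.911, 0.944 and 1.15. For each of the 3 called genes the lowest depleted sample exceeded the highest control, a separation seen in 13.5% of the genes tested, and no member had every depleted sample below the controls, as 12.1% of the genes did. The count of 3 called members and their separation are not read against the shares of 6.33% and 13.5%. Genes already called tend to separate in this way. In addition, NES passed the minimum mean of 10 only through its depleted samples and therefore had to differ. In bulk RNA a larger number of cells that express a gene cannot be told apart from more RNA per cell.

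**Figure D1:**
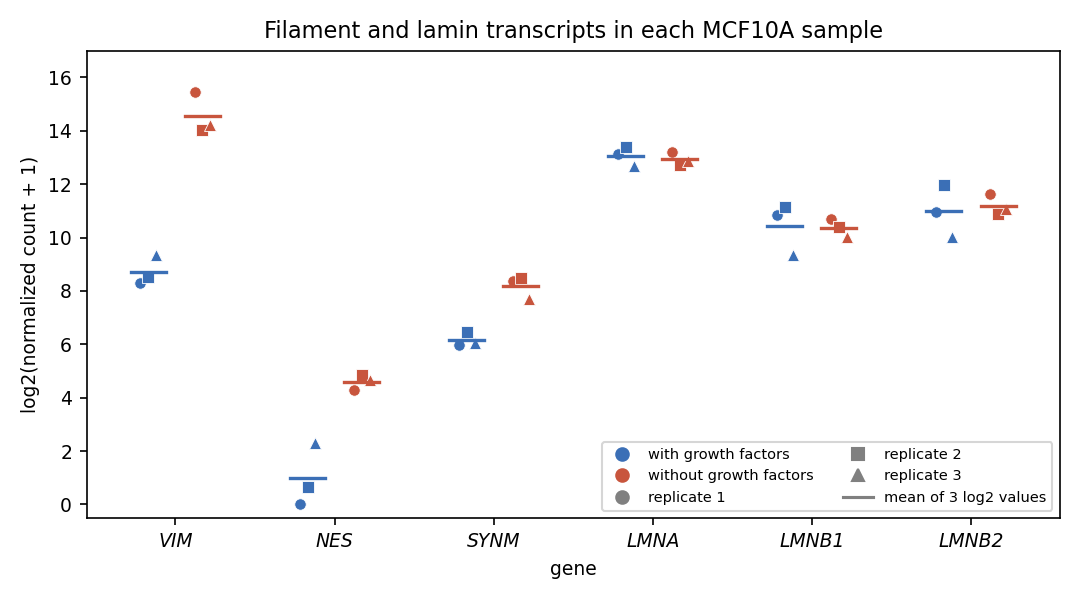
The vertical axis is log2(normalized count + 1) and each symbol is 1 sample, blue for control and red for growth factor-depleted, with circles, squares and triangles for replicates 1, 2 and 3 and bars for the mean of the 3 log2 values. The red symbols of VIM, NES and SYNM lie above all blue ones, while for LMNA, LMNB1 and LMNB2 all red symbols lie between the highest and the lowest blue one.

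The stretches upstream of the 3 genes that rose are shown here because the study concerns RUNX1, a transcription factor that binds TGTGGT. Each is the 250 bases that end just before the gene's RefSeq start site (build GRCh38.p14), 5′ to 3′ on the gene's strand, and capitals mark matches, on either strand, to TGTGGT (RUNX factors), TGANTCA (AP-1), CACCTG (an E-box bound by SNAI1 and ZEB1) or GGGCGG (the GC box of SP1). The VIM window is chr10:17227991-17228240 on the plus strand, the NES window chr1:156677408-156677657 on the minus strand, and the SYNM window chr15:99104830-99105079 on the plus strand, which lies inside the longer SYNM interval of Gencode v44.
VIM: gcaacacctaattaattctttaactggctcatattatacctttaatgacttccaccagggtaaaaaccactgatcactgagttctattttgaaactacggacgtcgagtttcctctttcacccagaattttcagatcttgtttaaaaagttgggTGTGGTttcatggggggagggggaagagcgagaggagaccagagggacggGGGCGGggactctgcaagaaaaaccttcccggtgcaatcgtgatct
NES: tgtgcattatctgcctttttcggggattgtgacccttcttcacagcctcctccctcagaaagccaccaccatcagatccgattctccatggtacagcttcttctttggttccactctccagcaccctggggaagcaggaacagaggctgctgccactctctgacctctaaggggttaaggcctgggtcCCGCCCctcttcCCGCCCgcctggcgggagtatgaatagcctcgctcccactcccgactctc
SYNM: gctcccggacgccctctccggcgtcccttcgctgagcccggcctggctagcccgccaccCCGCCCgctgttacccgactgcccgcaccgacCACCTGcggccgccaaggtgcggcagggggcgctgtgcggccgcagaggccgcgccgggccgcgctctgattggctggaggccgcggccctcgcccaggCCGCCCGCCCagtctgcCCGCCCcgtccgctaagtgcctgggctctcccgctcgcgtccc

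In the VIM window TGTGGT begins at position -96 and a GC box at -46, where -1 is the last base before the start site. The NES window holds 2 GC boxes, which appear as CCGCCC because they lie on the other strand. In the SYNM window there are 4 GC boxes, 2 of them overlapping, and 1 CACCTG, which begins at -159. TGTGGT occurs in 10.98% of the 35114 RefSeq windows of this length, TGANTCA in 6.57%, CACCTG in 17.5% and GGGCGG in 42.6%. G and C made up 46.0% of the VIM window, 58.0% of the NES window and 78.8% of the SYNM window, and the median over all windows was 58.0%. TGANTCA was found in none of these 3 windows. Of the 6 windows listed for LMNA, LMNB1 and LMNB2, none held TGTGGT or TGANTCA, 5 held at least 1 GC box and 1, of LMNA, held CACCTG. These motifs were chosen with earlier results of the data known, and a match is a description of the letters, not a binding site.

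VIM encodes vimentin, the type III filament protein of mesenchymal cells, and lies at chr10:17228241-17237593 on the plus strand of hg38. It was measured at 316, 367 and 643 normalized counts in control replicates 1, 2 and 3, and at 44834, 16542 and 19283 in depleted replicates 1, 2 and 3. The groups were far apart, and the lowest depleted sample was well above the highest control sample. The group means were 442 ± 176 and 26886 ± 15603 (SD, n = 3 each). Depleted replicate 1 had the highest level, and the 3 depleted samples reached 10140%, 3741% and 4361% of the control mean. The log2 fold change was 5.85 (SE 0.45, 95% confidence interval 4.82 to 6.87, limma adjusted p = 4.96e-04), which ranked 83 of the 16988 genes from the highest rise. VIM was called in all 19 alternative analyses, with log2 fold changes between 5.40 and 6.15, the lowest of which left out depleted replicate 1.

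Fibroblast markers, like VIM, were higher after depletion. Within the groups the order was not always shared. Among the controls, replicate 3 had the highest VIM and the lowest summed level of the fibroblast list, while depleted replicate 1 was the highest depleted sample in both. Of the 9 genes on that list, all in the table, 8 were tested and 6 were called, all higher after depletion (PDGFRA, PDGFRB, COL1A1, COL1A2, COL3A1 and LUM), beside 4.36% of all genes tested. Of the 6, PDGFRA, PDGFRB and LUM passed the minimum mean only through their depleted samples and so had to differ, and the count is not read against that share. The summed level of the list was 814 to 1721 in the control samples and 15875 to 35317 in the depleted ones. LUM, PDGFRA and THY1 were at or under the floor of 3 reads in all control samples, and THY1 remained below 10 normalized counts after depletion. The summed levels of the other lists overlapped between the groups. Of 3 endothelial genes tested CDH5 was called higher, also a gene that was tested only through its depleted samples, with summed levels of 167 to 1787 and 265 to 1610 over the 4 genes in the table. KDR went the other way without being called, at 778, 32.2 and 66.9 normalized counts in the controls and 0, 24.9 and 22.4 after depletion. Its log2 fold change was -3.83 (limma adjusted p = 0.193), and that of PECAM1, also not called, was 0.09. None of the 2 leukocyte genes tested was called (284 to 909 and 96.4 to 665 over the 3 in the table), nor TUBB3, the only neural gene in the table (31.3 to 47.2 and 36.6 to 152), nor the muscle genes ACTA1 and TNNT2 (1.25 to 118 and 24.7 to 73.8). The part of other cell types in the VIM level was not tested.

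An antisense gene, VIM-AS1 (chr10:17214239-17230018, minus strand), overlaps the start of VIM and its upstream window. It was looked up after the values of VIM had been seen. Its normalized counts were 3.76, 5.27 and 22.6 with growth factors and 271, 172 and 221 without them, so its groups did not overlap either. The log2 fold change was 4.62 (SE 0.66, limma adjusted p = 0.00561), and it was called in all 19 alternatives. Relative to VIM itself, VIM-AS1 made up 1.19%, 1.44% and 3.52% in the controls and 0.604%, 1.04% and 1.15% after depletion. The libraries were stranded, but the strand setting of the counting was not given in the sources used here, so reads of the overlap cannot be told apart with certainty.

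SYNM encodes synemin, a type IV filament protein that also links filaments to the dystrophin complex, and lies at chr15:99098217-99135593 on the plus strand. Its levels were 61.4, 87.9 and 65.9 normalized counts in the controls and 332, 357 and 206 after depletion. All depleted samples were above the highest control sample, with depleted replicate 3 the lowest of them. The means were 71.7 ± 14.2 and 298 ± 81.0 (SD, n = 3 each), a log2 fold change of 2.02 (SE 0.39, 95% confidence interval 1.14 to 2.90, limma adjusted p = 0.0190). In the order of all genes tested by rise it ranked 1063. The rise stayed between 1.87 and 2.26 on the log2 scale in all 19 alternatives. However, the call was lost when control replicate 1 was left out (adjusted p = 0.0678), and also without depleted replicate 1 (0.0625), replicate 2 (0.112) or replicate 3 (0.0503), all by limma.

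NES encodes nestin, a type VI filament protein known from neural and other progenitor cells, and lies at chr1:156668763-156677407 on the minus strand. It had 0, 1 and 4 reads in the control samples, or 0, 0.586 and 3.93 normalized counts. In the depleted samples it had 20, 42 and 11 reads, or 18.3, 27.5 and 24.6 normalized counts. Control replicates 1 and 2 were at or under the floor of 3 reads, and the groups did not overlap. Over the group, 5 reads were found among 58531479 in the controls. In the depleted samples 73 were found, where 17047310, 24407075 and 7472418 reads fell on genes in replicates 1, 2 and 3. The means were 1.51 ± 2.12 and 23.5 ± 4.72 (SD, n = 3 each), and even the depleted level was low.

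The log2 fold change of NES was 3.61 (SE 0.79, 95% confidence interval 1.81 to 5.40, limma adjusted p = 0.0321), and at so few reads its size depended on the pseudocount, with 4.14 at a pseudocount of 0.5 and 1.55 at 10. The call itself was not stable. With edgeR on the recovered reads, by which 5.72% of the genes tested were called, NES had a log2 fold change of 3.92 and missed the threshold (adjusted p = 0.0532). With DESeq2, by which 12.4% were called, it passed (adjusted p = 0.00600). Of the 6 fits that left out 1 sample, only the one without control replicate 3 kept the call (log2 fold change 4.26, limma adjusted p = 0.00728). Without control replicate 1 or 2 the adjusted p was 0.0968 or 0.0884, and without depleted replicate 1, 2 or 3 it was 0.0632, 0.148 or 0.137.

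**Figure D2:**
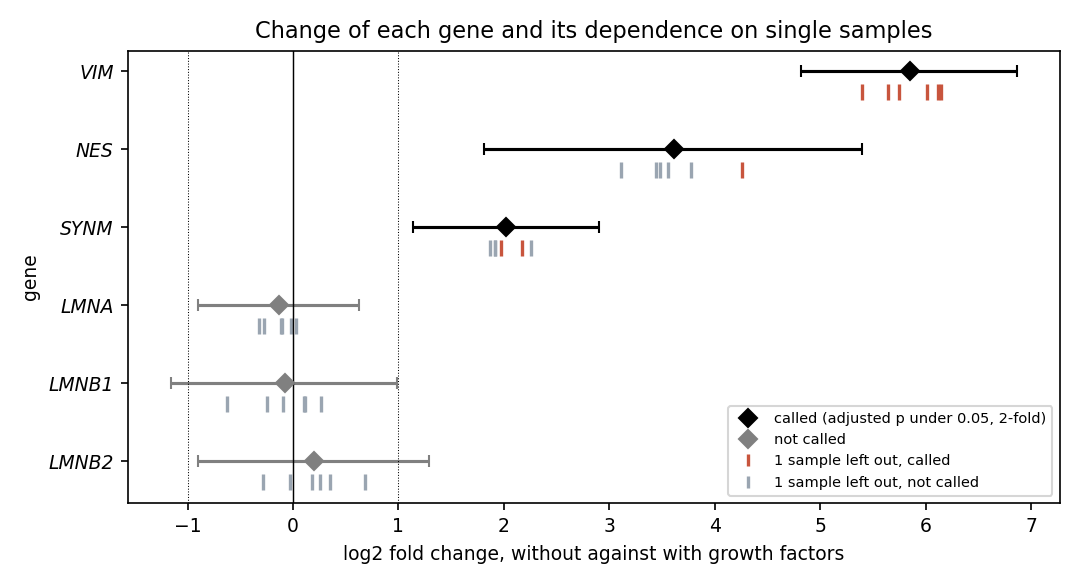
Diamonds are the limma log2 fold changes, depleted against control, with 95% confidence intervals as bars, black for called genes and grey for the others, and the short vertical marks below each are the values with 1 sample left out, red where the call held. VIM keeps all 6 red marks, SYNM keeps 2 and NES keeps 1, while the intervals of LMNA, LMNB1 and LMNB2 all span 0.

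The genes of the nuclear lamina come next. LMNA, which encodes lamins A and C, lies at chr1:156082573-156140081 on the plus strand, and its products cannot be separated in values per gene. Its normalized counts were 8998, 10768 and 6632 in the controls and 9546, 6725 and 7569 after depletion. All depleted values fell within the control range. The means were 8800 ± 2075 and 7947 ± 1448 (SD, n = 3 each), with a log2 fold change of -0.13 (SE 0.34, limma adjusted p = 0.878). The 95% confidence interval of the fold, 0.536 to 1.55, does not reach a 2-fold change on either side.

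LMNB1, which encodes lamin B1, lies at chr5:126776623-126837020 on the plus strand. It was at 1835, 2264 and 653 normalized counts in the controls and at 1663, 1336 and 1026 after depletion, means of 1584 ± 834 and 1342 ± 318 (SD, n = 3 each). The depleted samples again lay inside the control range, in which control replicate 3 was well below the other controls. The log2 fold change was -0.08 (SE 0.47, 95% confidence interval -1.16 to 0.99, limma adjusted p = 0.954).

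LMNB2, which encodes lamin B2, lies at chr19:2427638-2456959 on the minus strand. Normalized counts of 2001, 3996 and 1052 were found in the controls and of 3176, 1873 and 2124 after depletion, means of 2350 ± 1503 and 2391 ± 691 (SD, n = 3 each). The control samples enclosed the depleted ones here too. The log2 fold change was 0.20 (SE 0.48, 95% confidence interval -0.90 to 1.29, limma adjusted p = 0.875). For both B-type lamins the interval reaches a change of about 2-fold or beyond on at least 1 side, so a change of that size was not excluded.

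In all 3 lamin genes control replicate 2 was the highest and control replicate 3 the lowest of the 6 samples. The highest control was 3.80 times the lowest for LMNB2, 3.47 times for LMNB1 and 1.62 times for LMNA. The summed level of 10 markers of proliferation, a property with which LMNB1 is known to vary, was 27154, 29960 and 13101 normalized counts in the controls and 20612, 14269 and 10516 after depletion. Control replicate 3 was thus the lowest control in this sum as well. None of the 10 was called, with log2 fold changes from -1.03 to 0.37 and a median of -0.69. CCNB1, which encodes the mitotic cyclin B1, had the largest, -1.03 (limma adjusted p = 0.271), and was called only without control replicate 3 (-1.59, adjusted p = 0.0119). The part of proliferation in the lamin levels was not tested.

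Levels were then compared between genes as normalized counts per kb of annotated exon. In the control samples LMNA stood first at 1081 ± 255, followed by LMNB1 at 436 ± 230, LMNB2 at 436 ± 279, VIM at 85.4 ± 34.0, SYNM at 9.23 ± 1.82 and NES at 0.271 ± 0.381 (SD, n = 3 each). After depletion VIM moved to the first place at 5194 ± 3015, above LMNA at 976 ± 178, LMNB2 at 443 ± 128, LMNB1 at 369 ± 87.7, SYNM at 38.4 ± 10.4 and NES at 4.22 ± 0.847. Neighbours in these orders were separated in all 3 samples of the group and had ranges that did not overlap, except LMNB1 and LMNB2, whose ranges overlapped in both groups. LMNB1 was higher than LMNB2 in 1 of 3 control samples, and LMNB2 was higher in 2 of 3 depleted samples. Levels compared between genes depend on the length used. With the longest annotated transcript the control mean of the log2 ratio of LMNB2 to LMNB1 was 0.13, in place of -0.03.

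The share of VIM in the cytoplasmic filament transcripts was computed per kb over 23 genes, the 20 protein-coding keratins in the table with VIM, NES and SYNM. It was 0.0828%, 0.0948% and 0.479% in the controls and 25.8%, 5.58% and 3.67% after depletion. All depleted samples were above all controls, and depleted replicate 1 was far above the other two. The means were 0.219 ± 0.225% and 11.7 ± 12.2% (SD, n = 3 each), a difference of 11.5 percentage points that fell to 4.41 without depleted replicate 1. The exact permutation test, two-sided, gave p = 0.1, the smallest that 3 against 3 samples allow, and 0.4 after Benjamini-Hochberg adjustment over the 4 composition measures.

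Keratins held nearly all of the remainder in each sample, with NES and SYNM together at well under 1%. They made up 99.9%, 99.9% and 99.5% of the filament transcripts with growth factors and 74.1%, 94.3% and 96.3% without them. The sum of the keratins varied widely, with 73650, 74747 and 25807 normalized counts per kb in the controls and 24914, 54044 and 97642 after depletion, and these ranges overlapped. The high VIM share of depleted replicate 1 thus went with both the highest VIM and the lowest keratin sum of the 6 samples. Among the 23 genes VIM ranked 16, 15 and 13 with growth factors and 2, 4 and 4 without them. The most abundant keratin was KRT81 in the control group (16428 ± 11159 per kb), a hair keratin with near-identical copies whose reads may be split uncertainly, and KRT17, a basal keratin, in the depleted group (22708 ± 17503). By group means 14 keratins were above VIM in the control and 3 (KRT17, KRT7 and KRT81) in the depleted samples.

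Within the lamina the share of LMNA was 55.8%, 49.2% and 68.5% of the lamin transcripts per kb in the controls and 52.8%, 53.6% and 57.9% after depletion. The groups overlapped, and control replicate 3 was the highest of all. The means were 57.8 ± 9.79% and 54.8 ± 2.72% (SD, n = 3 each, exact permutation p = 0.8, adjusted 0.8). Their difference of -3.06 percentage points became 2.27 without control replicate 3. The shares themselves depend on the length used. Over the samples they ran from 66.3% to 81.6% with the longest annotated transcript, and from 63.2% to 79.6% without division by length. The log2 ratio of LMNB2 to LMNB1 was -0.45, 0.25 and 0.12 with growth factors and 0.36, -0.08 and 0.48 without them, and these overlapped too (exact permutation p = 0.4, adjusted 0.533).

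For NES and SYNM, which both enter vimentin filaments, the log2 ratio of NES to SYNM per kb was -6.13, -6.75 and -3.58 in the control samples, with 0.5 reads standing in for the 0 of control replicate 1, and -3.70, -3.21 and -2.58 in the depleted samples. SYNM was the higher of the pair in every sample. Control replicate 3 lay within the depleted range, so the groups overlapped (exact permutation p = 0.2, adjusted 0.4).

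**Figure D3:**
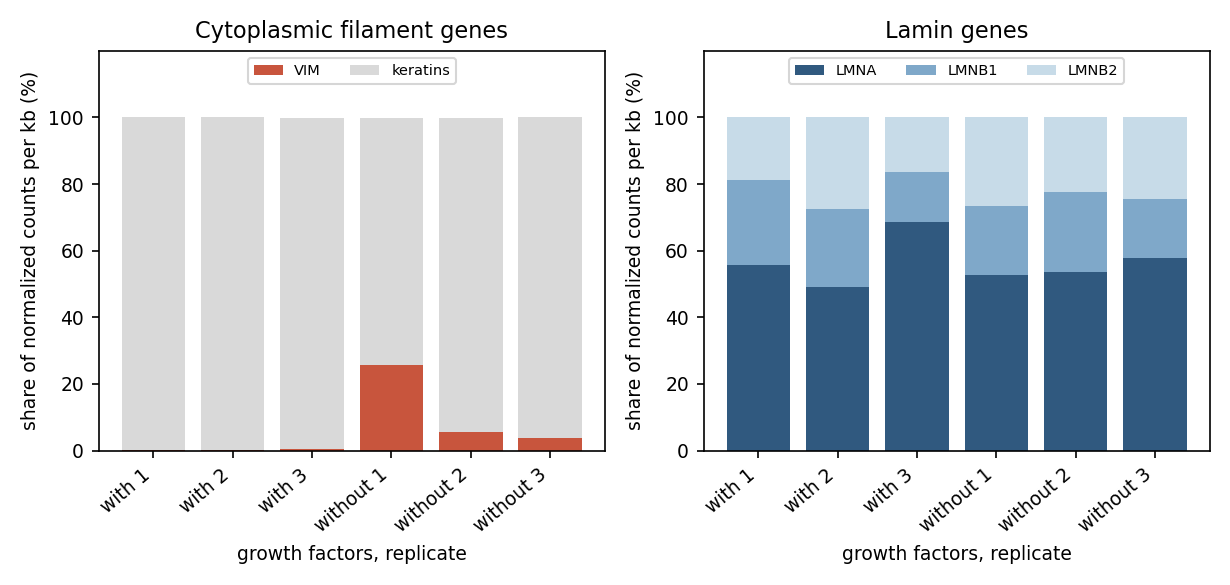
Bars give shares of normalized counts per kb in each sample, with and without growth factors, of VIM and keratins among 23 cytoplasmic filament genes on the left and of the 3 lamin genes on the right. VIM reaches 25.8% in depleted replicate 1 and 5.58% and 3.67% in the others, against at most 0.479% in a control. Per kb of annotated exon LMNA takes between 49.2% and 68.5% of the lamin transcripts in every sample. This share is higher with the longest transcript as the length, or with no division by length.

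Other non-keratin filament genes were mostly not analysed here, since of 11 listed genes only BFSP1, IFFO1 and IFFO2 are in the table. Of the 2 tested, IFFO2, which encodes a protein with an intermediate filament rod, was called. Its normalized counts were 569, 602 and 857 in the controls and 2092, 6166 and 12081 after depletion, with no overlap (log2 fold change 3.02, SE 0.57, limma adjusted p = 0.0189). The call was lost without control replicate 1 (adjusted p = 0.0771), control replicate 2 (0.0622) or depleted replicate 2 (0.0796).

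The cytolinkers are plakin proteins that tie filaments to junctions and to other parts of the cytoskeleton. Of the 7 genes, all tested, EVPL was called, and it was lower after depletion. EVPL encodes envoplakin, a plakin of the epithelial cornified envelope and desmosomes. It was at 1311, 1777 and 1906 normalized counts in the controls and 252, 449 and 458 after depletion. The groups were well separated (log2 fold change -2.14, SE 0.33, limma adjusted p = 0.00778), and EVPL was called in all 19 alternatives. The other 6 lay between -1.63 and 1.34 on the log2 scale without being called, and the median of the list was -0.01.

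The LINC complex spans the nuclear envelope and connects the lamina, through SUN proteins, with nesprins that reach the cytoskeleton. SYNE1, which encodes nesprin-1, was the 1 gene of 6 called. It was at 179, 272 and 792 normalized counts in the controls and at 3520, 2006 and 1538 after depletion, again with no overlap (log2 fold change 2.71, SE 0.56, limma adjusted p = 0.0248). Leaving out single samples, its call held only without control replicate 3, and the adjusted p was 0.0525 to 0.0852 in the other fits, and 0.0539 when limma was run without its trend. The median of the list was 0.37.

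Proteins of the inner nuclear membrane, among them the lamin B receptor and the LEM domain proteins, bind lamins directly. None of these 12 genes was called. Their log2 fold changes ran from -0.46 to 0.75 with a median of 0.01, the largest being that of NRM, which encodes nurim (0.75, limma adjusted p = 0.322). The 5 lamin processing genes, for the enzymes that farnesylate, cleave and methylate prelamins, included no called gene either, with a range of -0.40 to 0.53 and a median of -0.18. ICMT, the carboxyl methyltransferase, had the largest value (0.53, limma adjusted p = 0.573). The fitted log2 fold changes of the lamin genes and of both lists of their partners all lay within 1 unit of 0. Their 95% confidence intervals did so for some genes, such as LMNA (-0.90 to 0.63). Others passed 1 unit, such as LMNB2 (-0.90 to 1.29), NRM (-0.11 to 1.62) and ZMPSTE24 (-1.64 to 0.84). A 2-fold change was not excluded for these. With 6.33% of all genes tested called, the absence of calls in such short lists is not read as a difference from that share.

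Synemin binds members of the dystrophin and dystrobrevin family, which anchor the cytoskeleton to dystroglycan and the sarcoglycans at the plasma membrane. Of 13 listed genes 11 were in the table and 10 were tested, with a median of 0.27 over the 10. Of these 3 were called, all higher, beside 4.36% of all genes tested. DTNA and SNTB1, 2 of the 3, had to differ to be tested, and the count is not read against that share. SGCB, which encodes β-sarcoglycan, was at 504, 601 and 514 normalized counts in the controls and 1893, 1946 and 1563 after depletion. Both groups were tight and did not overlap (log2 fold change 1.73, SE 0.26, limma adjusted p = 0.00626), and the call held in all 19 alternatives.

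The other 2 were scarce genes that passed the minimum mean only through their depleted samples. DTNA, which encodes α-dystrobrevin, was at 0, 0 and 2.95 normalized counts in the control samples, none above 3 reads, and at 10.98, 70.8 and 69.3 after depletion (limma adjusted p = 0.0256). SNTB1, which encodes β1-syntrophin, was at 5.01, 7.62 and 4.92 against 22.9, 99.7 and 42.5 (log2 fold change 2.80, SE 0.67, limma adjusted p = 0.0461). The call of DTNA was also lost at a pseudocount of 10 (adjusted p = 0.0504, log2 fold change 2.23 in place of 4.63), and that of SNTB1 at a pseudocount of 10 (0.0580), after quantile normalization (0.0751) and with the transcript length correction (0.0506), so that SNTB1 was called in 9 of 18 alternatives and DTNA in 13 of 18. Each kept its call in only 2 of the 6 fits with 1 sample left out. The adjusted p rose to 0.0929, 0.0796, 0.129 and 0.124 for DTNA, and to 0.132, 0.0885, 0.218 and 0.161 for SNTB1, without control replicate 1, control replicate 2, depleted replicate 2 and depleted replicate 3, in that order. SGCD, for δ-sarcoglycan, was too low to be tested, with no read in any control sample and 4.58, 24.9 and 20.1 normalized counts in the depleted samples.

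**Figure D4:**
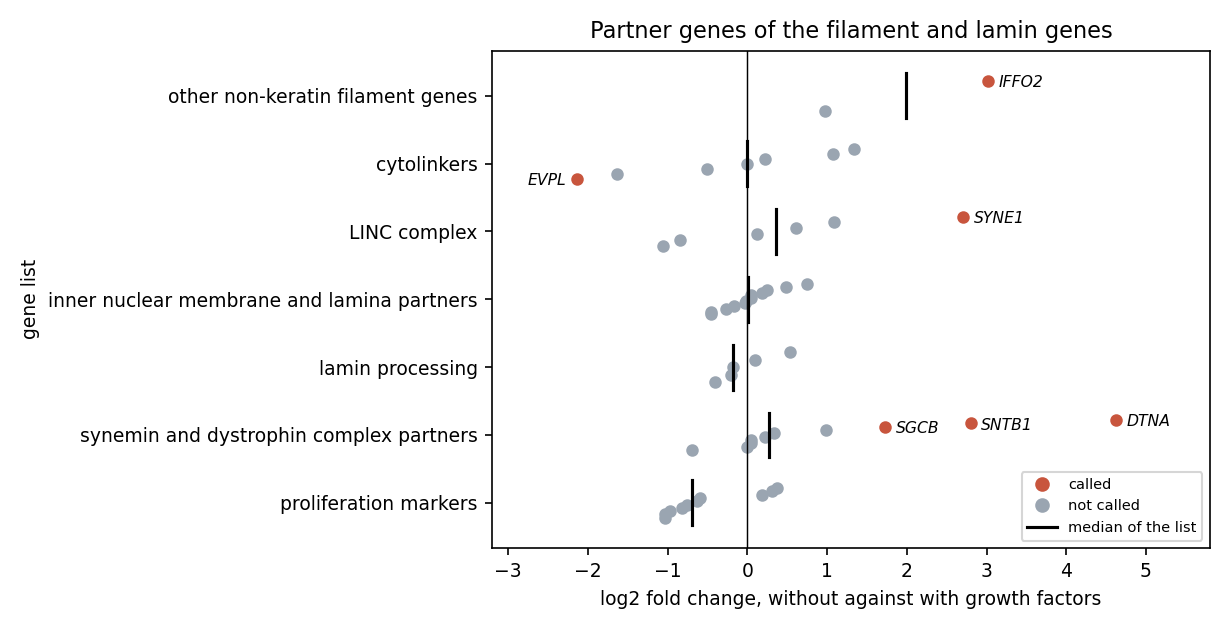
Each point is the limma log2 fold change of 1 partner gene, depleted against control, on the horizontal axis, with 1 row per list, red and named where called, and a vertical bar at the median of the list. Called genes lie in 4 of the 7 lists, IFFO2, SYNE1, DTNA, SGCB and SNTB1 to the right and EVPL to the left, and the lists of the inner nuclear membrane, lamin processing and proliferation hold none.

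Over the 7 lists 6 of the 52 genes tested were called, beside 6.33% of all genes, and the 6 include DTNA and SNTB1, which had to differ to be tested. This count was 2 without control replicate 1, control replicate 2 or depleted replicate 2, 3 without depleted replicate 3, 5 without depleted replicate 1 and 10 without control replicate 3. EVPL and SGCB were called in every one of these fits.

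Genes with the profile most like that of each member were found by the root mean square difference between log2 values centred on their mean over the 6 samples, among 11687 other genes with a mean of at least 100 (11688 for NES, itself below that mean). For VIM these were SYT11 (0.248), ANXA6 (0.351) and HTR1D (0.474). Their control means were 3.67, 10.6 and 10.9 normalized counts, so they reached a mean of 100 only through their depleted samples. For SYNM the closest were NAV3 (0.134), NCR3LG1 (0.185) and LRRC49 (0.203). NES was matched most closely by CLTCL1 (0.279), ADAMTS6 (0.286) and SYNPO (0.319). NAV3, LRRC49 and CLTCL1, with control means of 64.0, 43.8 and 62.0, also reached a mean of 100 only through their depleted samples. With 0, 1 and 4 reads in the controls, the NES profile depends on the pseudocount and on counting error. Of the lamin genes LMNA was closest to GTF2F1 (0.050), RAD51C (0.062) and TFB1M (0.064), LMNB1 to CENPI (0.097), GINS4 (0.103) and NDUFAF4 (0.123), and LMNB2 to CBR1 (0.077), H2BC15 (0.097) and the pseudogene UBE2SP1 (0.127). Among the members the closest pair was LMNB1 and LMNB2 (0.307), before LMNA with LMNB1 (0.393) and LMNA with LMNB2 (0.401), while VIM and SYNM differed by 2.001 and NES by 1.33 from VIM and by 1.11 from SYNM. The 6 samples and their size factors are shared by all these profiles, so the values are descriptions.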

How the data were processed

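Total RNA of 3 control and 3 growth factor-depleted MCF10A samples was depleted of ribosomal RNA, made into stranded libraries and sequenced as single-end reads of 100 bases. According to the submitters' processing notes and the methods, the authors trimmed reads with cutadapt 1.6, aligned them by TopHat2 to hg38, obtained a count per Gencode v22 gene from HTSeq 0.6 and scaled each sample by its size factor in DESeq2 1.8.1. The deposited values are therefore a normalized signal (normalized counts) per gene, not raw counts. Whole reads could be recovered for 100% of the deposited values, within a tolerance of 0.01 reads. Samples were grouped by their labels, which give 3 per condition although the design text speaks of duplicates. Replicates differed by more than counting noise (chi-square per degree of freedom 28.7 to 331.6). There were no molecular identifiers, so the floor of 3 reads covers counting error alone.

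Gene names, coordinates and exon lengths came from Gencode v44 on hg38, which named 18913 of the 19198 identifiers, and the authors' filter on genes with few reads is not described. Differences were fitted across all genes with limma 3.58.1 (trended eBayes, R 4.3.3) and Benjamini-Hochberg adjustment over the 16988 genes tested. Alternatives were pseudocounts of 0.5 and 10, a minimum mean of 50 or none, other scalings, limma without trend, the replicate number as a block, a transcript length correction, each sample left out in turn, and edgeR 4.0.16 and DESeq2 1.42.0 on recovered reads. The procedure was tested on simulated data. Composition measures used exact permutation tests in scipy 1.17.1 (Python 3.11.15, numpy 2.4.6, pandas 2.3.3, matplotlib 3.10.9). Promoter windows came from RefSeq, where all 6 members matched by symbol.

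Named genes are the 6 members, each partner list's called genes and largest change, the 3 genes most like each member, and the top keratin per group. VIM-AS1, SGCD, PCNA, MKI67 and the marker genes named, among them KRT5, CDH1, ITGB4, GATA3 and ESR1, were added after their values were seen. The members and lists were chosen with earlier results of these data known.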

Additional observations from a re-analysis of the deposited data

How the results depend on the processing

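VIM, EVPL, SGCB and VIM-AS1 kept their direction and call under all 19 alternatives. The number of genes called, 1076 by limma and 971 by edgeR, was 2112 with DESeq2, and 453 to 2474 with 1 sample left out, the highest without control replicate 3. The number of members called, 3, ranged from 1 to 3 with 1 sample left out, with VIM alone left in 4 of these 6 fits, and the number called in the partner lists, 6, ranged from 2 to 10. NES passed under 10 of 18 alternatives and was not tested at a minimum mean of 50. SYNM passed under 15 of 19. No lamin gene was called under any of the 19, but their small differences changed sign: with 1 sample left out LMNA ranged from -0.32 to 0.03 on the log2 scale, LMNB1 from -0.63 to 0.27 and LMNB2 from -0.28 to 0.68, and LMNB1 was 0.01 after quantile normalization. The cause was not tested. Same-numbered samples did not deviate together (correlations of -0.07, -0.28 and -0.32). With 3 samples per group, centred within the group, these values cannot settle whether the samples were grown or processed in pairs. With the replicate block 967 genes, 2 members and 5 partner genes were called, NES and SNTB1 missing the threshold (adjusted p = 0.0508 and 0.0703). No scaling moved the median of all genes by more than 0.1. For the 4 composition measures, every alternative moved the difference by less than the SD pooled over both groups, although for the LMNA share it turned from -3.06 to 2.27 percentage points without control replicate 3. Depth limits NES, at 5 control reads in all, and the 3 samples per group limit the lamin intervals.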
